A study of Homo sapiens with 8 samples.

Results

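Binding of RUNX1 near microRNA genes of blood cells was read from peak lists of CUT&RUN, in which an antibody on permeabilized cells guides a nuclease to a chromatin protein and the released DNA is sequenced. The loci described are MIR23A, MIR27A and MIR24-2, which lie side by side on chromosome 19, MIR144 and MIR451A, which lie side by side on chromosome 17, and MIR223, MIR17HG, MIR150 and MIR146A. Every peak from 20 kb before to 20 kb after these 9 genes was taken, and the regions around clustered genes were counted once, which leaves 6 loci. They held 20 of the 33478 regions that remain when all peak lists of the series are merged wherever peaks overlap by at least 1 bp.

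The cells were HEL, an established human erythroleukemia line, transduced and kept in 2 μg/ml puromycin. Each line carried 1 construct, and the antibody was directed against the HA tag. The lines expressed HA-tagged wild-type RUNX1 (WT), RUNX1-4A or RUNX1-4D, or held an empty vector, with 2 biological replicates of each and 500000 cells per sample. In this kind of name the A stands for alanine, which cannot take a phosphate, and the D for aspartate, whose charge resembles one, in place of serine or threonine. The empty vector line served as background for peak calling, so 6 of the 8 libraries have a peak list. The cells' own untagged RUNX1, which all lines may carry, was not measured, the lines are transduced with a tagged protein whose level is not given here, and no expression data were used, so neither the cell type nor the level of any microRNA was checked.

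The replicate 1 lists were short, with 5358 to 6764 peaks, and the replicate 2 lists held 21122 to 25911 peaks. Read depth is not given in a peak list. A missing call therefore says nothing on whether the site was free of RUNX1. Each peak carries the authors' own −log10 q and their linear fold over the background track. The percentile used here is the place of a peak's −log10 q within its own list. With 2 libraries against 2, the smallest p of a two-sided exact permutation test is 0.333. No region was tested between lines, and values are given as a description.

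A microRNA is cut from a long RNA polymerase II transcript, first into a hairpin by DROSHA and DGCR8 and then by DICER1 into a short duplex, and its seed, bases 2 to 8 of the mature strand, pairs with target messages. RUNX1 binds the letters TGTGGT or TGCGGT through its Runt domain together with CBFB, and it directs the megakaryocytic, lymphoid and granulocytic branches of blood formation. Several of these microRNAs act on the same branches, and miR-27a and the miR-17 family are known to target RUNX1 itself.

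Of the 24 mature strands found for these loci, 12 are shown, 1 for each hairpin, because the seed takes part in choosing targets. None is shown for MIR150 or MIR451A, whose sequences were not used here. Sequences were taken from RefSeq tables of GRCh38.p14, in which 6 of the 9 members matched the microRNA table and MIR17HG matched the promoter table. The seed is in capitals and the rest in lower case.
hsa-miR-23a-3p: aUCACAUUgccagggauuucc
hsa-miR-27a-3p: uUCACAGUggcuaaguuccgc
hsa-miR-24-3p: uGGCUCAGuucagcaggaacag
hsa-miR-144-3p: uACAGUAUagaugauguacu
hsa-miR-223-3p: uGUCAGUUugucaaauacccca
hsa-miR-146a-5p: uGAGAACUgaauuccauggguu
The 3 strands of the MIR23A cluster have 3 different seeds, although the first bases of the miR-23a and miR-27a seeds are alike. The host transcript MIR17HG carries 6 hairpins, whose strands are shown to mark the shared seeds.
hsa-miR-17-5p: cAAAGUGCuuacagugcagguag
hsa-miR-20a-5p: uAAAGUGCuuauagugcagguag
hsa-miR-18a-5p: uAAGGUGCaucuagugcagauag
hsa-miR-19a-3p: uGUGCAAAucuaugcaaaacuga
hsa-miR-19b-3p: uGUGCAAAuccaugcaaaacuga
hsa-miR-92a-3p: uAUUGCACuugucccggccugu
Here miR-17 and miR-20a share the seed AAAGUGC, and miR-19a and miR-19b share GUGCAAA. Among the 24 strands compared, which leave out MIR150 and MIR451A, those of miR-18a and miR-92a shown here shared their seed with no other.

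RUNX1 was called at every one of the 6 loci in at least 2 libraries, but mostly in the long replicate 2 lists. The MIR23A cluster was the only locus with a region in all 6 libraries, beside 13.5% of all RefSeq microRNA loci. The MIR144 and MIR451A locus had the highest-ranking single region, and MIR223 had no region in any replicate 1 list or in 4D. The WT libraries called 3 and 15 of the 20 regions, the 4A libraries 2 and 14, and the 4D libraries 4 and 10 (replicates 1 and 2). WT had a mean of 9.0 ± 8.49 regions, 4A of 8.0 ± 8.49 and 4D of 7.0 ± 4.24 (SD, n = 2 each). Whole lists held 19.6 and 76.3% (WT), 18.3 and 71.0% (4A) and 15.6 and 61.5% (4D) of all regions. These lines differed by less than their replicates did. The replicate 2 count was 5.0 (WT), 7.0 (4A) and 2.5 (4D) times the replicate 1 count, where whole lists were 3.83, 3.87 and 3.94 times as long.

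**Figure D1:**
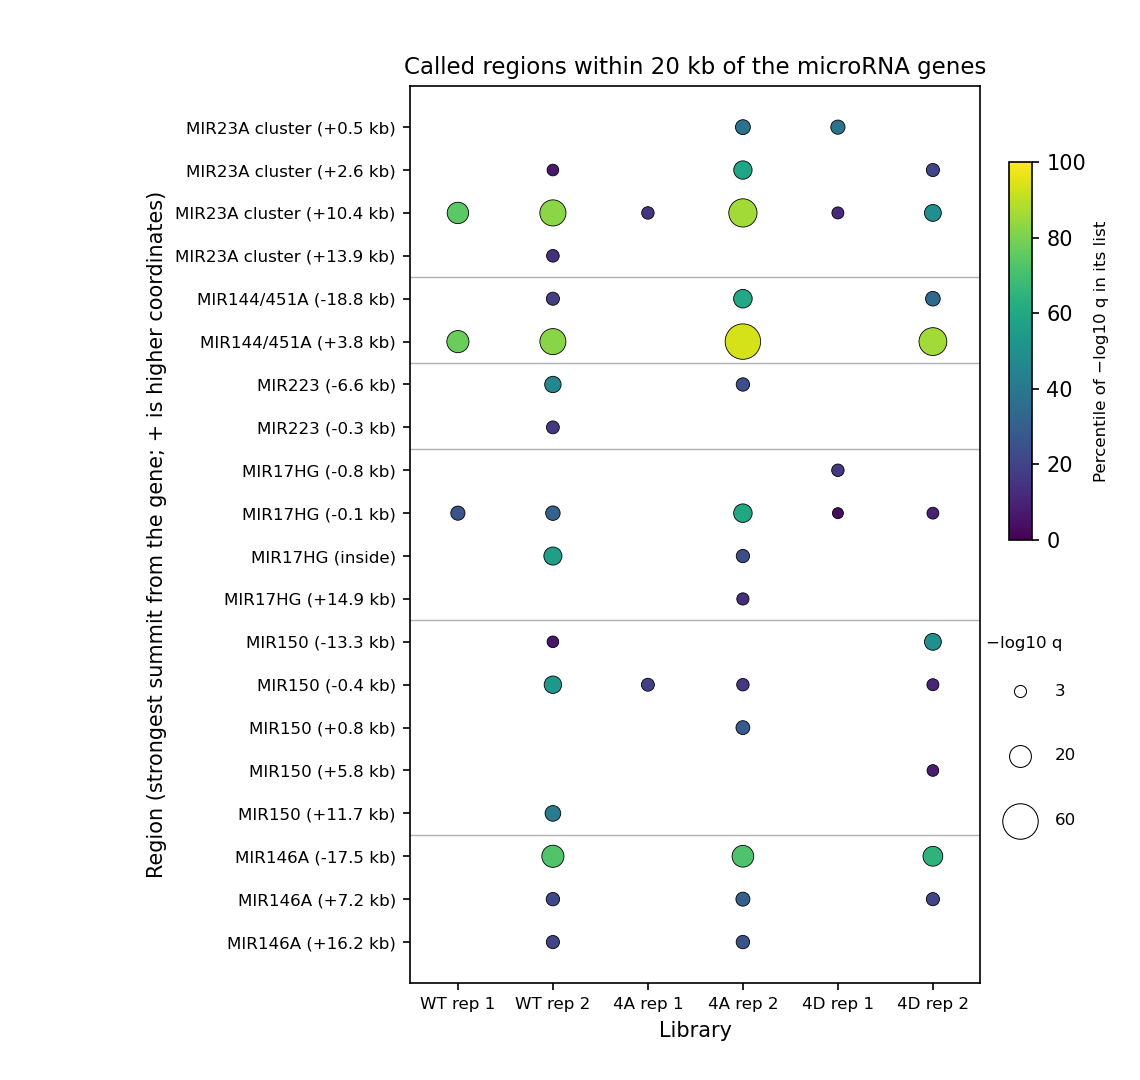
Regions within 20 kb of the microRNA genes (rows, with the distance of the strongest summit from the named gene in kb, MIR23A and MIR144 for the clusters) in the 6 libraries (columns). A point is a call, its area follows −log10 q and its colour the percentile in its own list, with 2 to 15 points per column and all 6 columns filled only for the MIR23A region at +10.4 kb.

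Read against the rest of the genome, single regions at these loci were called about as often as others. In all 6 libraries 1 of the 20 was called, beside 9.84% of all regions, and in all 3 replicate 2 lists 8 of the 20, beside 45.6%. Both WT libraries called 3 of them (19.1% of all regions), both 4A libraries 2 (17.0%) and both 4D libraries 2 (14.8%). Of the 20, 14 were called in replicate 2 lists only (72.6% of all regions) and 7 in a single library (34.5%). These shares lie near the background and are no result about the microRNA loci.

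Counted by locus, the loci with a region in both libraries of a line numbered 3 of 6 in WT, namely the MIR23A cluster, the MIR144 locus and MIR17HG. In 4A they were the MIR23A cluster and MIR150, and in 4D the MIR23A cluster and MIR17HG. All RefSeq microRNA loci, with genes within 10 kb of each other joined, had such a region at 20.9% (WT), 19.9% (4A) and 16.8% (4D) of 1597, and protein-coding genes at 34.9, 31.1 and 28.0% of 20037. By gene, the count was 6 of the 9 members for WT and 4 for each mutant, beside 20.1, 19.0 and 16.3% of 1913 microRNA genes, and 8 of the 9 had a region in all 3 replicate 2 lists (31.8%), but clustered members share their regions. WT replicate 2 and 4A replicate 2 each had a region at all 6 loci, where 42.1 and 43.3% of microRNA loci and 66.0 and 65.7% of protein-coding genes had one. The 4D replicate 2 list had one at 5 loci (38.8% and 61.8%), and the replicate 1 lists at 3 (WT; 21.5% and 35.8%), 2 (4A; 20.3% and 32.2%) and 2 (4D; 17.8% and 29.0%). In all 3 replicate 2 lists 5 of the 6 loci had a region (33.5% and 54.8%). In all 6 libraries 1 locus had one (16.7%), near the 13.5% of microRNA loci and the 21.0% of protein-coding genes. The list was drawn up by known roles in blood cells, but with earlier results of these data known. With 6 loci chosen in this way, no test of these shares was made.

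**Figure D2:**
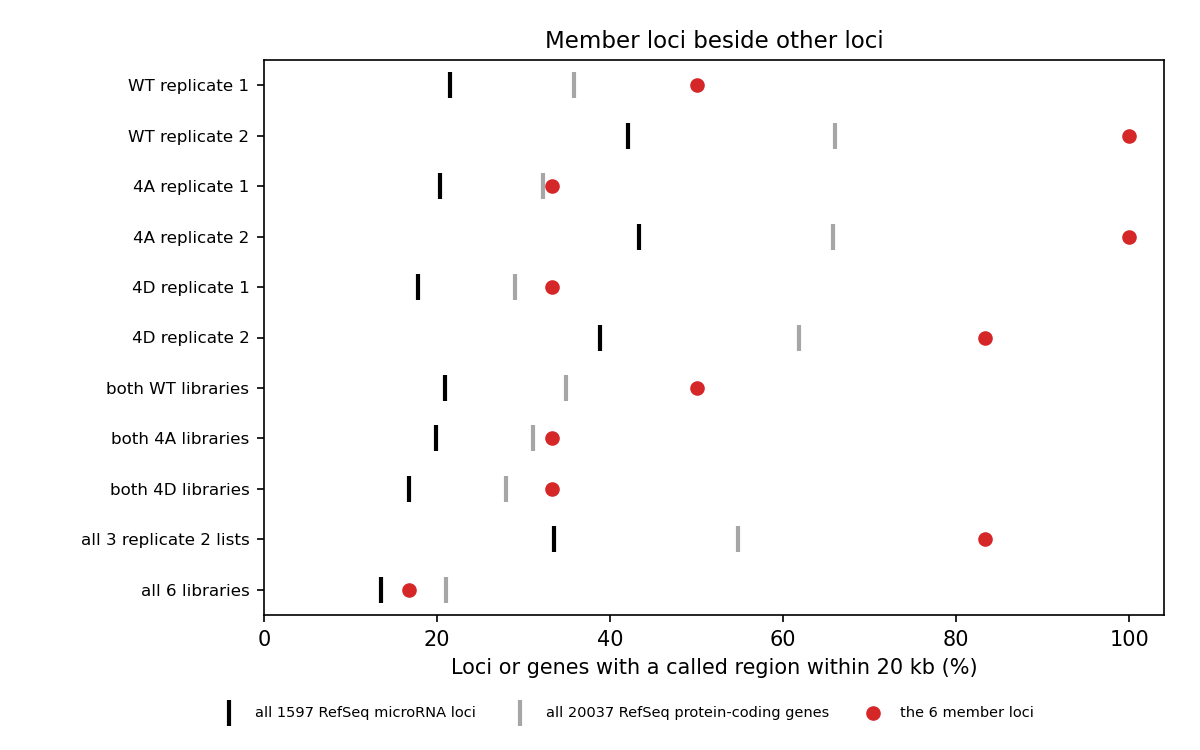
Percentage of loci or genes with a called region within 20 kb (horizontal axis) for each library and for combinations of libraries (vertical axis). Red points are the 6 member loci, black marks all 1597 RefSeq microRNA loci and grey marks all 20037 protein-coding genes, and the member loci run from 16.7% (all 6 libraries) to 100.0% (WT replicate 2 and 4A replicate 2).

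At these loci 0 of the 20 regions had calls from both replicates of one line and none from either replicate of another, in any of the 6 directions. Over all regions such patterns made up 0.114% (4D not WT) to 0.669% (4A not 4D), with 0.472% for WT not 4D, 0.269% for WT not 4A, 0.206% for 4A not WT and 0.314% for 4D not 4A. A count of 0 among 20 regions lies near that background. The comparisons with WT share the WT libraries.

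**Figure D3:**
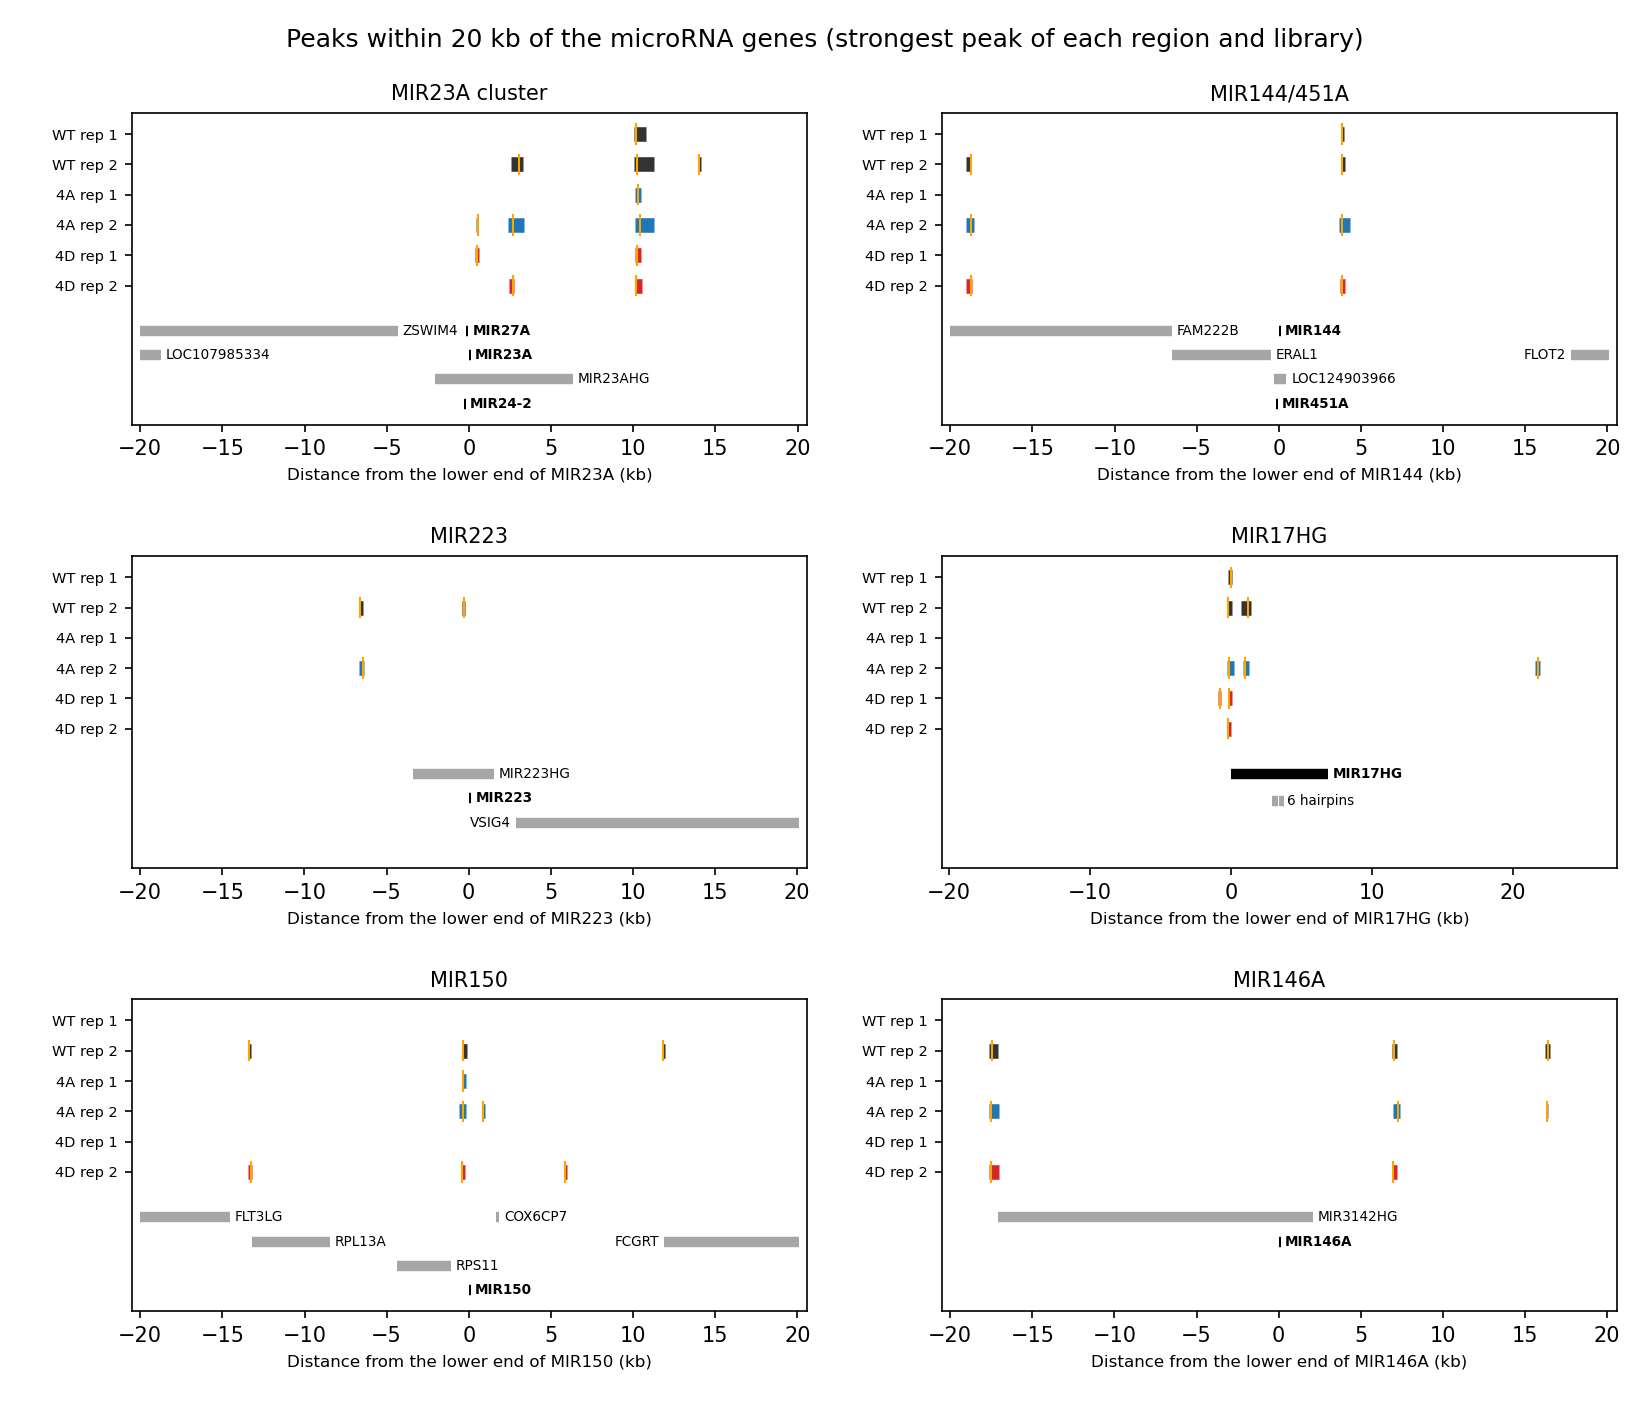
Position of the strongest peak of each region and library (bars, with an orange mark at the summit) along the 6 loci, in kb from the lower end of the named gene with higher coordinates to the right. Member genes are black and other genes grey, and the plot shows calls stacked at the same place in several libraries 10.4 kb from MIR23A, 3.77 kb from MIR144 and at the start of MIR17HG.

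The MIR23A cluster encodes miR-23a, miR-27a and miR-24, which act in myeloid and erythroid cells, on a single primary transcript of MIR23AHG. The genes lie on the minus strand at chr19:13836587-13836659 (MIR23A), chr19:13836440-13836517 (MIR27A) and chr19:13836287-13836359 (MIR24-2) of hg38, so higher coordinates are upstream. Their window held 4 regions. The region at chr19:13846648-13847867 was called in all 6 libraries, with its strongest summit 10.4 kb upstream of MIR23A and its edge 3.73 kb beyond the nearer end of MIR23AHG, outside any gene.

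At this region WT replicates 1 and 2 had −log10 q of 19.0 and 30.5, the 4A pair 3.53 and 36.4, and the 4D pair 2.93 and 10.1. Fold enrichment for WT was 9.73 and 9.91, for 4A it was 4.0 and 9.52, and for 4D it was 4.17 and 4.85. The region thus ranked high in both WT lists (percentiles 74.4 and 82.8) and in 4A replicate 2 (86.3), near the middle in 4D replicate 2 (49.4) and low in 4A replicate 1 (15.3) and 4D replicate 1 (12.1). The fold was highest in WT within both replicate numbers, as it was at 57.5% (replicate 1) and 74.0% (replicate 2) of all regions called in all 6 libraries. At the 8 member regions called in all 3 replicate 2 lists, WT had the highest fold at 4 and 4A at the other 4, beside 66.8% and 15.3% of all such regions. Read depth is unknown, and no order of binding was read from this. Under a stricter −log10 q minimum of 5, and also with every list shortened to the same length, this region was no longer called in all 6 libraries, and 0 of the 20 regions were.

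Inside MIR23AHG, the region at chr19:13838980-13839938, 2.61 kb upstream of MIR23A, was called in the 3 replicate 2 lists, with −log10 q of 2.54 in WT, 12.8 in 4A and 4.39 in 4D. It reached percentile 59.2 in 4A and only 6.40 in WT. A region at chr19:13836956-13837192, 0.451 kb upstream of MIR23A, was called in 4A replicate 2 (−log10 q 6.92) and 4D replicate 1 (5.86). The fourth, 13.9 kb upstream, was called in WT replicate 2 alone (3.68). No region overlapped the RefSeq promoter window of MIR23AHG, which runs from 250 bases before to 50 bases after its start (chr19:13842869-13843168), and that window held neither TGTGGT nor TGCGGT on either strand.

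The MIR144 and MIR451A locus makes miR-144 and miR-451a, the microRNAs most characteristic of red cell precursors, of which miR-451a is matured by AGO2 in place of DICER1. MIR144 lies on the minus strand at chr17:28861533-28861618 and MIR451A beside it at chr17:28861369-28861440. The region at chr17:28865220-28865881 lay 3.77 kb upstream of MIR144 and 3.23 kb from LOC124903966, the annotated RNA that spans both hairpins. WT replicates 1 and 2 had −log10 q of 20.6 and 30.2 there, replicate 2 of 4A had 59.9 and that of 4D had 35.2, and it was not called in replicate 1 of 4A or 4D.

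The fold enrichment there was 9.09 and 11.1 in WT, 13.7 in 4A replicate 2 and 11.2 in 4D replicate 2. At percentile 93.7 of its list, the 4A peak was the highest-ranking peak of all 6 loci, and the other 3 calls stood at 77.0, 82.4 and 86.3. All 4 lists that called the region thus ranked it high. The summits of the 4 libraries fell within 3 bp of each other. Among all 2706 regions called in exactly 4 libraries the median span of the summits was 89.0 bp, and 0.48% had a span of 3 bp or less. This share was taken for the narrower of the 2 member regions called in 4 libraries, so it is a description and not a test. The regions were not matched by peak strength. Other member regions had narrow or wide spans. Those called in exactly 3 libraries spanned 401, 26, 60 and 295 bp, where the median over all such regions was 64.0 bp. The MIR150 region called in 4 libraries spanned 44 bp. At the MIR23A region called in all 6 libraries the span was 256 bp (median 107.0 bp over all such regions, 85.1% at or below), and at the start of MIR17HG, called in 5, it was 203 bp (median 98.5 bp, 80.7% at or below).

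The other region of this locus, at chr17:28842490-28842958, lay 18.8 kb to lower coordinates, inside FAM222B and over one of its RefSeq starts, and was called in the 3 replicate 2 lists with −log10 q of 4.34 (WT), 13.2 (4A) and 6.53 (4D). Its 3 summits spanned 26 bp. The promoter window of LOC124903966 (chr17:28861941-28862240) overlapped no region.

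MIR17HG is the host gene of a cluster of microRNAs that is driven by MYC, promotes proliferation and restrains apoptosis. It lies at chr13:91347687-91354577 on the plus strand. The region over its start, chr13:91347407-91347878, was called in 5 of the 6 libraries, all but 4A replicate 1. WT had −log10 q of 5.83 and 6.27, 4A replicate 2 had 13.1, and the 4D pair had 1.7 and 2.75. The fold enrichments were 5.52, 5.2, 6.68, 4.1 and 3.62 in the same order. The region was weak in most lists. Its percentiles were 25 and 31.2 in WT, 59.7 in 4A replicate 2, and 3.17 and 9.0 in 4D, so both 4D calls were among the lowest of their lists. With a −log10 q of at least 5 the 4D calls fell away. The region then became the 1 called in both WT libraries and in neither 4D library. The WT values of 5.83 and 6.27 lay just above that cutoff, and both 4D libraries called the region without it. The share of all regions with this pattern at that cutoff was not counted, so no difference between lines was read from it.

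The promoter window of MIR17HG (chr13:91347437-91347736, plus strand) is shown because the peaks of 5 libraries overlapped it. Capitals mark the single match to TGCGGT, and no TGTGGT was found on either strand.
MIR17HG promoter window: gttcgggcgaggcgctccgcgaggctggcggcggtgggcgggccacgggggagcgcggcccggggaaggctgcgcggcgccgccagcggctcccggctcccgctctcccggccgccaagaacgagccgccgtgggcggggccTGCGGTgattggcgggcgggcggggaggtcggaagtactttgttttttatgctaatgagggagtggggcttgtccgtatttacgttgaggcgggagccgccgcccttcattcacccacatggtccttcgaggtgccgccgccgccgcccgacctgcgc
The match lay 108 to 103 bases before the start (chr13:91347579-91347584) and was covered by the peak of each of the 5 libraries. The summits lay 84 and 120 bp from it in WT, 18 bp in 4A replicate 2, and 1 and 113 bp in 4D. Of all 35116 promoter windows 7.29% held TGCGGT or its reverse complement ACCGCA, and 13.1% held TGTGGT or ACCACA. Of the 9997 windows that overlapped a region of any library, 13.6% held TGCGGT or ACCGCA and 10.7% held TGTGGT or ACCACA. The match is a description of the letters and not a mapped site.

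Within MIR17HG, between its start and the hairpins, a region at chr13:91348411-91349114 was called in WT replicate 2 (−log10 q 12.3) and 4A replicate 2 (4.59). The remaining 2 regions were called in 1 library each, 0.758 kb before the start in 4D replicate 1 (3.5) and 14.9 kb beyond the gene in 4A replicate 2 (3.18).

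MIR150 encodes a microRNA of mature lymphocytes that represses MYB and is known to steer megakaryocyte-erythroid progenitors toward megakaryocytes. It lies at chr19:49500785-49500868, among ribosomal protein genes. The nearest region, chr19:49500214-49500704, ended 0.081 kb from the hairpin and was called in WT replicate 2 (−log10 q 11.1), in 4A replicates 1 and 2 (4.12 and 3.47) and in 4D replicate 2 (2.90). The fold enrichments were 4.84, 4.81, 2.57 and 2.79 in that order. This was the 1 region of these loci called in both 4A libraries and in 1 library each of WT and 4D, and it passed percentile 50 only in WT (52.8). Its 4 summits spanned 44 bp.

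Some of the other regions around MIR150 lay at neighbouring genes. One that ended 0.039 kb before RPL13A, a ribosomal protein gene, 13.3 kb away, was called in WT replicate 2 (−log10 q 2.47) and 4D replicate 2 (10.1). One in FCGRT, the neonatal Fc receptor, 11.7 kb away (chr19:49512564-49512732), was called in WT replicate 2 alone (8.13). The promoter window of FCGRT held 2 matches to ACCACA, 133 to 128 and 110 to 105 bases before its start, both outside that peak. The last 2 regions were called in 4A replicate 2 (5.36) and 4D replicate 2 (2.54) alone. They lay 0.788 and 5.76 kb from MIR150, and 0.652 and 3.96 kb from the nearest gene, COX6CP7.

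MIR146A encodes a brake on NF-κB signalling that silences TRAF6 and IRAK1. It lies at chr5:160485352-160485450 on the plus strand, in its host gene MIR3142HG. All 3 regions of its window were called in replicate 2 lists only. The strongest, chr5:160467729-160468306, 17.5 kb upstream of the hairpin, lay over the start of MIR3142HG, with −log10 q of 20.6 in WT, 19.6 in 4A and 15.6 in 4D. The 3 values were close, as were the percentiles of 72.6, 72.0 and 64.8, and the fold enrichments were 9.53, 7.37 and 7.3. The summits spanned 60 bp, where the median over the 8016 regions called in exactly 3 libraries was 64.0 bp.

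The promoter window of MIR3142HG (chr5:160468001-160468300, plus strand) is shown because the peaks of the 3 replicate 2 lists overlapped it.
MIR3142HG promoter window: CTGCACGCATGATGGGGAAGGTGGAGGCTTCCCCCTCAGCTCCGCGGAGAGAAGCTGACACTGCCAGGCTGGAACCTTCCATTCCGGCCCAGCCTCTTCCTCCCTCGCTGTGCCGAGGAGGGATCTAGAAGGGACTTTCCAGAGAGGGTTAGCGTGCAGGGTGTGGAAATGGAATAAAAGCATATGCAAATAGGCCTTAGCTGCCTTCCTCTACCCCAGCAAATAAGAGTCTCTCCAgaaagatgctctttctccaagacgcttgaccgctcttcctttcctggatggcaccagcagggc
Capitals mark the 237 bases that all 3 peaks cover (chr5:160468001-160468237). The WT peak ended there, short of the start, which the 4A and 4D peaks crossed. The window held neither TGTGGT nor TGCGGT on either strand. The summits lay outside it, 135 bp (WT), 195 bp (4A) and 186 bp (4D) before its first base. The peaks ran on upstream of the window, where no sequence was read.

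The other MIR146A regions were lower. The region at chr5:160492241-160492723, 7.19 kb beyond the hairpin, had −log10 q of 4.77 (WT), 5.57 (4A) and 4.43 (4D), and its summits spanned 295 bp. A region 16.2 kb beyond the hairpin was called in WT (4.45) and 4A (4.79).

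**Figure D4:**
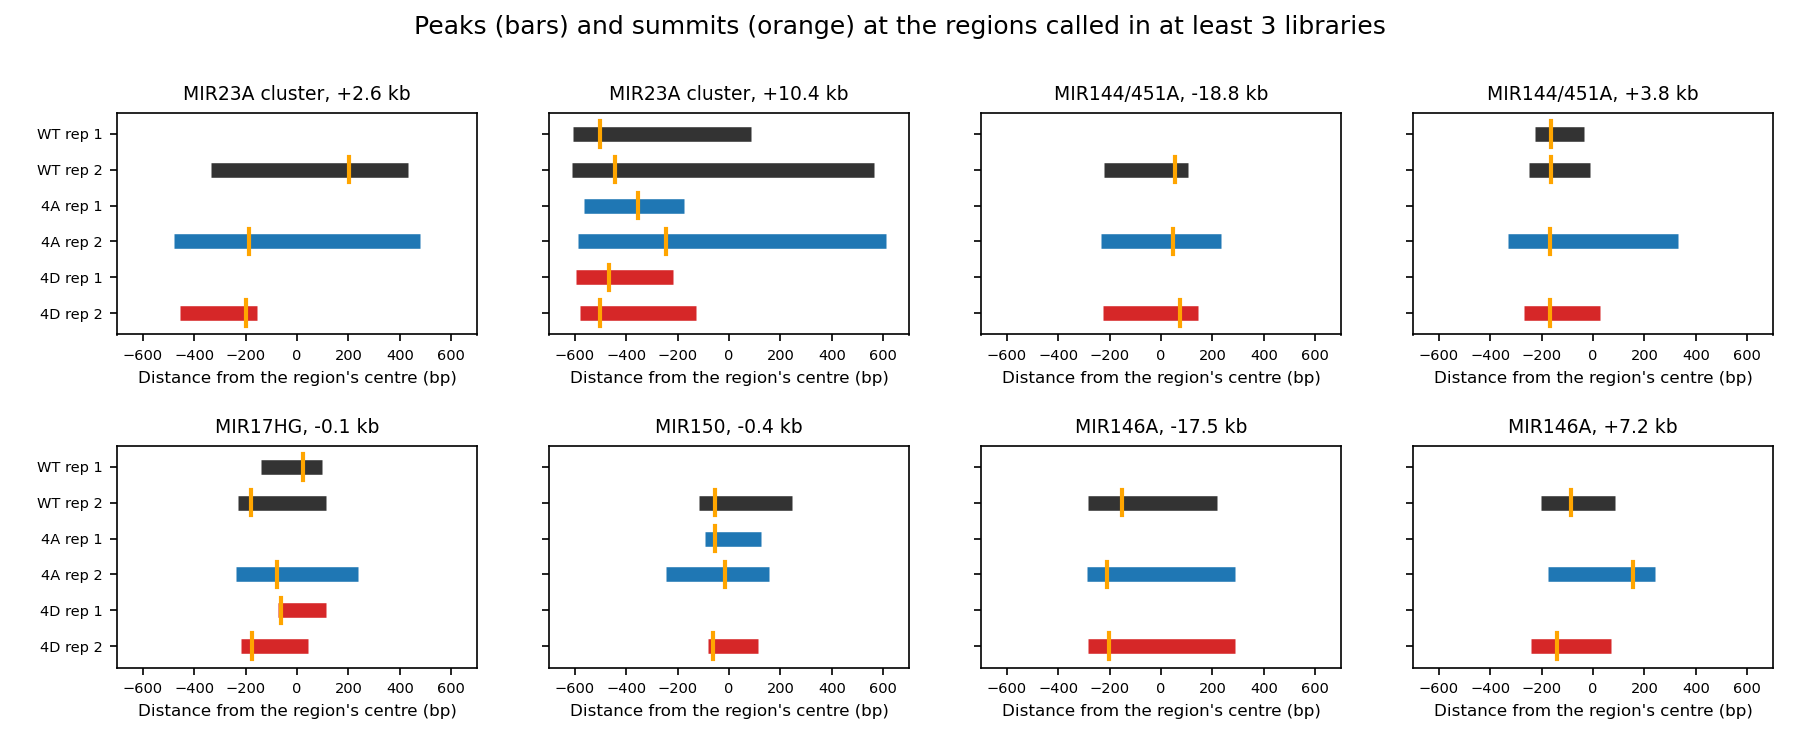
Peaks (bars) and summits (orange) of the 8 regions called in at least 3 libraries, in bp from the centre of each region, with 1 row per library and the distance of the strongest summit from the gene in the title. The summits of 4 libraries fall within 3 bp upstream of MIR144 and are spread over 256 bp at the MIR23A cluster, +10.4 kb.

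MIR223 encodes the leading microRNA of granulocytes and monocytes, which restrains their activation. It lies at chrX:66018870-66018979 on the plus strand. A region 6.62 kb upstream, chrX:66012212-66012490, was called in WT replicate 2 (−log10 q 9.34) and 4A replicate 2 (4.71). Another, 0.285 kb upstream of the hairpin and inside MIR223HG, was called in WT replicate 2 alone (4.01). Neither passed percentile 50 in any list, the highest being 46.2. The region nearest outside any window lay here, 20.5 kb from MIR223 (chrX:65998217-65998360), and was called in 1 library with −log10 q of 6.12. The farthest inside any window was that at FAM222B, 18.4 kb from MIR451A.

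The 48 calls at the 6 loci had a median percentile of 29.0 in their own lists, from 3.17 to 93.7, where 50 is the middle of a list by construction. Medians by library were 74.4 and 31.2 (WT replicates 1 and 2), 17.1 and 33.5 (4A) and 14.1 and 27.2 (4D). At or above percentile 50 stood 15 of the 48, in WT replicates 1 and 2 (2 and 5), 4A replicate 2 (6) and 4D replicate 2 (2). With a missing call set to 0, the mean percentile of the strongest peak over the 6 lists was 57.7 at the MIR23A cluster, next to the MIR144 locus (56.6), followed by MIR146A (34.9), MIR17HG (27.7), MIR150 (24.9) and MIR223 (11.7). This order rests on the 0. Over only the lists with a call the means were 84.9 at the MIR144 locus (4 lists), 69.8 at MIR146A (3), 57.7 at the MIR23A cluster (6), 37.4 at MIR150 (4), 35.1 at MIR223 (2) and 33.2 at MIR17HG (5). Neighbours in the first order, such as the leading pair, were closer than the spread over the lists, which ran from 15.3 to 86.3 at the MIR23A cluster and from 0 to 93.7 at the MIR144 locus.

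**Figure D5:**
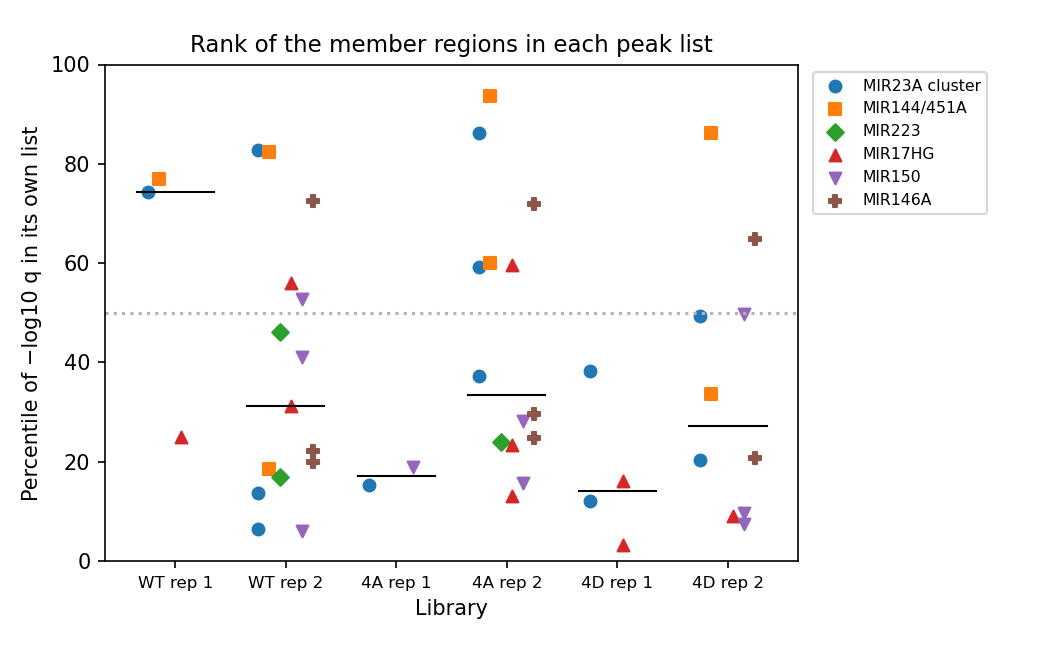
Percentile of −log10 q in its own list (vertical axis) for the strongest peak of each called region in the 6 libraries (horizontal axis), with a symbol for each locus. Black lines are medians over the regions of a library, from 14.1 (4D replicate 1) to 74.4 (WT replicate 1), and the dotted line marks the middle of a list.

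Protein-coding genes whose 6 percentiles were nearest to those of the MIR23A cluster by Euclidean distance were ATP5MC1 and UBE2Z, whose values were identical (distance 16.5), and MEX3C (19.0). ATP5MC1, a subunit of ATP synthase, had percentiles of 58.5 and 79.2 (WT), 14.5 and 87.5 (4A) and 38.2 and 47.5 (4D). The strongest peaks of the cluster had 74.4 and 82.8 (WT), 15.3 and 86.3 (4A) and 38.2 and 49.4 (4D). In 4D replicate 1 that peak was the one 0.451 kb upstream of MIR23A. This is a likeness over 6 lists, and the identical values of ATP5MC1 and UBE2Z count as a single likeness.

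Other microRNA loci of blood cells and the machinery that makes microRNAs were read with the same window. Of 36 further microRNA or host genes, 13 had a region in both WT libraries, 9 in both 4A and 9 in both 4D libraries, beside 20.1, 19.0 and 16.3% of all RefSeq microRNA genes. Listed genes that lie together share regions, so these are counts of genes and not of separate loci. In all 6 libraries 7 of the genes had a region, beside 13.1%, and these 7 shared 4 regions. They were MIR155 with its host MIR155HG, known from activated lymphocytes and macrophages, MIR23B, MIR27B and MIR24-1, which form the paralogous cluster of MIR23A on another chromosome, MIR9-1, and MIR210, a microRNA of hypoxia. The region at MIR155 had −log10 q from 11.1 to 54.6 over the 6 lists, that at the MIR23B cluster from 5.76 to 55.4, that at MIR9-1 from 23.6 to 123, and that at MIR210 from 7.67 to 92.9.

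Of 21 genes of microRNA processing and silencing, 12 had a region in both WT libraries, 8 in both 4A and 7 in both 4D libraries, beside 34.9, 31.1 and 28.0% of protein-coding genes. The mutants' counts lie near that share. Near the share of protein-coding genes (21.0%), and so no result about this list, 5 of the 21 had one in all 6 libraries. They were DGCR8, the partner of DROSHA, with −log10 q from 4.68 to 54.9, TARBP2 and PRKRA, the partners of DICER1, with 9.85 to 26.3 and 9.91 to 63.2, DIS3L2, the nuclease that degrades tailed let-7 precursors, with 2.94 to 24.9, and the helicase gene DDX5 with 10.7 to 41. Most other genes of this list had regions in the replicate 2 lists, with 17 of the 21 in all 3 of them, where 54.8% of protein-coding genes had one. Long genes have wider windows and more regions, and counts were not adjusted for length.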

How the data were processed

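Per the submitters' processing notes, MACS2 2.2.7.1, Bowtie2 2.4.2 and cutadapt 3.4 were used, with Picard 2.25.6 and deepTools 3.5.1, on build hg38. The sources used here do not state read filters or whether the empty vector libraries were pooled. The deposited lists, 1 per library, hold for each peak a score, a fold enrichment (ratio), the −log10 of p and q, and a summit offset. The authors' values were used only to describe and rank peaks. The lowest −log10 q of a list was 1.30 to 1.41, near a q-value of 0.05.

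Autosomal, X and Y peaks were merged into regions by an overlap of at least 1 bp, with python 3.11.15 and pandas 2.3.3, after a check on simulated lists. Genes and sequences came from RefSeq tables of GRCh38.p14, whose primary coordinates are those of hg38. All 9 members were named, and regions called in at least 3 libraries were given with coordinates and the −log10 q of each call. Genes of the context lists were named where a region was called in all 6 libraries. The 3 protein-coding genes nearest to the MIR23A cluster, the locus with the highest mean over the 6 lists, by the percentiles of their strongest peaks were named, over 1 Mb away. Members and lists were chosen with earlier results of these data known. Alternatives were other windows, a stricter q, equal list lengths, summits in place of peaks, and leaving out each replicate.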

Additional observations from a re-analysis of the deposited data

How the results depend on the processing

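All values are counts of called regions or loci, or shares of microRNA genes, with no test. Of the 9 alternatives, equal list lengths within each replicate number, summits chained within 200 bp and the demand for a summit in the window moved none of the 22 results by more than 1.5 times. With a window of 10 kb, WT replicate 2 called 9 regions and 12.2% of microRNA genes had a region in both 4A libraries. With 50 kb WT libraries called 7 and 29 regions, 4A libraries 6 and 29 and 4D libraries 7 and 22, 4 were called in all 6 libraries, WT had the highest fold in 6 cases (2 in the main setting, a case being a region called in all 6 libraries and a replicate number), and 32.8% (WT), 30.5% (4A) and 27.2% (4D) of microRNA genes had a region in both libraries. With a −log10 q of at least 5 the regions numbered 8 in WT replicate 2, 0 and 9 in 4A, and 1 and 5 in 4D; 0 loci had one in both 4A or both 4D libraries, 0 regions were called in all 6 libraries, 1 was called in WT and not 4D, and 3 processing genes had a region in all 6. No region was left in all 6 libraries to order by fold under this or the next setting. Counts of regions called in one line and not another were not set beside all regions under any alternative. With all lists at 5358 peaks the replicate 2 lists called 2 (WT), 2 (4A) and 1 (4D) regions, 1 locus (4A) and 0 loci (4D) had a region in both libraries, 0 regions were called in all 6, 2 processing genes were, and the microRNA gene shares were 11.7% (WT), 12.2% (4A) and 10.6% (4D).

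Leaving out a replicate number leaves 1 list a line, so "both libraries" becomes that list. The loci called then numbered 3 to 6 in WT, 2 to 6 in 4A and 2 to 5 in 4D, and regions called in every list left 1 to 8. Regions called in one line and not another numbered 1 to 6 (WT not 4D), 1 to 2 (4D not WT), 2 to 4 (WT not 4A), 1 to 3 (4A not WT), 1 to 6 (4A not 4D) and 2 to 3 (4D not 4A). Without replicate 1 and without replicate 2 the microRNA gene shares ran from 20.4 to 41.5% (WT), 19.1 to 42.6% (4A) and 17.0 to 36.5% (4D), the cases with the highest fold in WT from 1 to 4, the other microRNA genes from 7 to 20 and the processing genes from 5 to 17. Counts per library (3 and 15, 2 and 14, 4 and 10) do not depend on the other number. No paired analysis was possible because the results come from no test. The order of fold was described within each replicate number. Read depth is unknown, so a missing call sets no upper limit on binding.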
